A study of Homo sapiens with 2 samples.

Results

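Store-operated calcium entry is the entry of calcium across the plasma membrane after a cell's internal calcium stores are emptied. The 10 genes examined encode its core parts and the proteins that release calcium from the stores and refill them. They were examined in the rituximab-resistant Burkitt lymphoma line Ramos640 and in its parent line Ramos. The rule chose the genes by name, for their roles, and used no measured value: the IP3 receptors ITPR1, ITPR2 and ITPR3, the calcium sensors STIM1 and STIM2, the channel subunits ORAI1, ORAI2 and ORAI3, and the SERCA pumps ATP2A2 and ATP2A3. They made up 10 of the 37122 gene rows of the count table. Earlier results of these data were known when they were chosen.

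Ramos is a human B-cell line established from a Burkitt lymphoma, and Ramos640 was derived from it as a line that survives complement-dependent cytotoxicity, the killing of antibody-coated cells by serum complement. Both lines were grown in culture medium with fetal bovine serum, and Ramos640 was also exposed every 21 days to rituximab, the antibody against CD20, together with 20% normal human serum (NHS). The sample labels give the rituximab concentration as 640 mg/mL and the study's methods give the same number in μg/mL. RNA of 3 passages was pooled for each line and sequenced as 1 library per line, so no difference below has a replicate check, and Ramos640 stands for a single derived line.

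In B cells, the antigen receptor activates phospholipase C, which makes the messenger IP3. IP3 opens the IP3 receptors in the membrane of the endoplasmic reticulum (ER), and calcium leaves the store. The STIM proteins sense the emptied store and open the ORAI channels of the plasma membrane, and the SERCA pumps return calcium to the ER. Calcium that enters this way drives the phosphatase calcineurin and the transcription factor NFAT.

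The members of each family are close relatives, and a read that falls wholly within a shared stretch cannot be assigned to 1 of them by its sequence. The longest stretch shared between canonical transcripts of the same family was 34 bases, between ORAI2 and ORAI3, and the next was 29 bases, between ITPR1 and ITPR2. For ORAI1 and ORAI2 it was 23 bases, for STIM1 and STIM2 it was 14 bases, and for each of the other pairs it was 20 bases. The stretches of both longest pairs are shown because the counts below rest on telling these genes apart. They were read 5′ to 3′ from transcripts on GRCh37, with the shared run in capitals and 15 bases of its own gene in lower case on each side, and all of the bases are protein coding. The ORAI stretch lies at chr7:102079608-102087002 on the plus strand, across exons 3 and 4 of the 4 exons of ORAI2, and at chr16:30960818-30964548 on the plus strand, across exons 1 and 2 of the 2 exons of ORAI3. The ITPR run lies in exon 24 of 62 of ITPR1 (chr3:4718435-4722244, plus strand) and in exon 22 of 57 of ITPR2 (chr12:26781088-26784849, minus strand). All 4 printed stretches cross a splice junction, so these spans include an intron.
ORAI2: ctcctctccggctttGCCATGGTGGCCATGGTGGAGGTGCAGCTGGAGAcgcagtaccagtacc
ORAI3: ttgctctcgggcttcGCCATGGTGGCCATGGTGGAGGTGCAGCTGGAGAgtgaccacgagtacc
ITPR1: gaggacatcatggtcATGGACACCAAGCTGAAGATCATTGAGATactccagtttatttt
ITPR2: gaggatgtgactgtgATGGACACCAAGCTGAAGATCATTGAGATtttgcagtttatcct

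The table held 38030090 reads for Ramos and 30871826 for Ramos640. The libraries were brought to a common scale by median-of-ratios size factors. A log2 fold change is the log2 ratio of Ramos640 over Ramos after adding 1 to each scaled count. The interval beside it is the 95% exact (Clopper-Pearson) interval from the reads of both libraries, and it covers counting error only. All 6 B-cell marker genes were read in both lines, with between 4624 and 69495 reads each in Ramos and between 1904 and 82890 in Ramos640. They did not move together, from a log2 fold change of -1.96 for MS4A1, which encodes CD20, to 0.64 for CD79B. The sums over T-cell, monocyte, epithelial, and erythroid and platelet markers lay between 3 and 38 reads, the T-cell sum of 32 in Ramos640 being mostly CD3E with 31 reads. Transcripts rich in G and C tended to have higher log2 fold changes (Spearman's rho 0.43 over 10220 protein-coding genes, which are not independent replicates), from a median of -0.35 in the tenth of genes with the lowest GC content to 0.18 in the highest, and the part of this trend in the results was not tested beyond the GC-corrected values given below. In bulk RNA, fewer cells that express a gene and less RNA per cell cannot be told apart.

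ORAI3 RNA was lower in Ramos640 by 2.15-fold, and none of the other 9 genes differed by more than 1.5-fold, the fold criterion of the study. ORAI2 was just under that criterion, at 1.48-fold higher, and STIM1 was 1.35-fold lower. The study also set a limit on the false discovery rate, which was not estimated here with 1 library per line. By sign, 6 of the 10 members were higher in Ramos640 (ITPR3, STIM2, ORAI1, ORAI2, ATP2A2 and ATP2A3) and 4 were lower (ITPR1, ITPR2, STIM1 and ORAI3). All 10 had at least 10 reads in both libraries together, the minimum for entering the comparison, which 18778 genes met. The median log2 fold change was 0.10 over the members and -0.015 over all 18778 genes. Past 1.5-fold there were 0 members higher and 1 lower, where 14.6% of all genes were higher and 17.3% lower. Among the 11522 genes with at least 271 reads, the number for the least read member, the shares were 8.27% higher and 10.8% lower. Counting intervals lay above a fold of 1 for 6 members and below it for 4, against 29.6% and 31.6% of all genes, or 36.9% and 38.9% of the genes with at least 271 reads. At these depths an interval that excludes 1 was thus common and does not set the members apart.

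**Figure D1:**
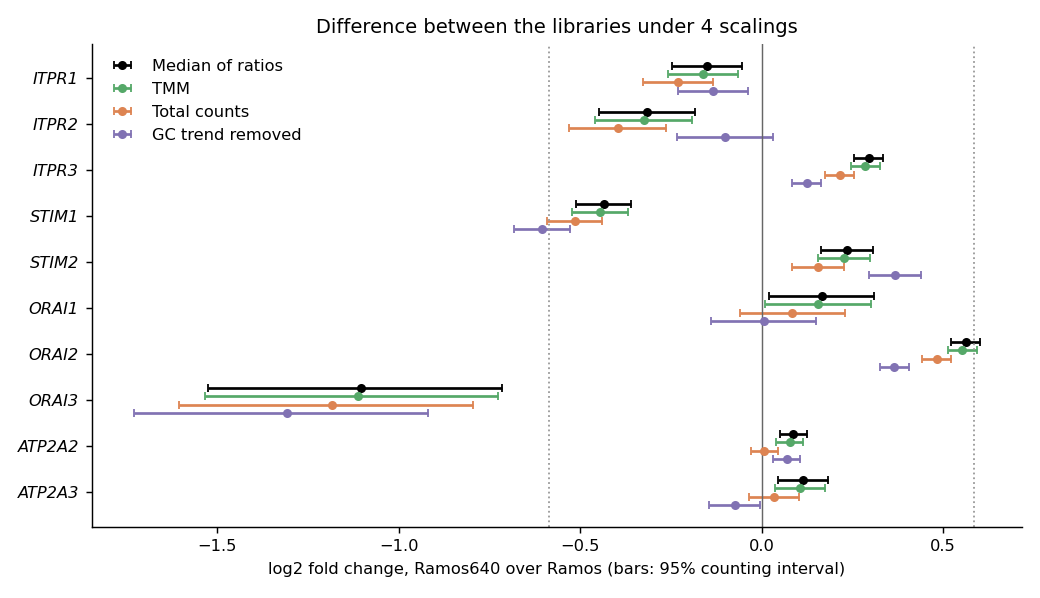
Log2 fold change of each of the 10 genes, Ramos640 over Ramos, under 4 scalings of the libraries; bars are 95% counting intervals, the solid line marks no difference and dotted lines mark a fold of 1.5. ORAI3 lies past the lower line under each scaling, and ATP2A3 changes sign when the GC trend is removed.

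Among the ORAI channel subunits the 3 genes moved apart. ORAI2, a channel subunit that can lower the current carried by ORAI1 when the subunits assemble together, had 9586 reads in Ramos and 10869 in Ramos640 despite the smaller total of the latter library. Its log2 fold change was 0.56, with an interval of 0.52 to 0.60 that reaches past the 1.5-fold criterion. ORAI2 thus stood among the most abundant of the 10 transcripts and was higher in the resistant line. ORAI1, the main pore subunit of the calcium release-activated channel in lymphocytes, had 842 reads in Ramos and 725 in Ramos640. The log2 fold change of ORAI1 was 0.17, with an interval from 0.020 to 0.31, and it came to 0.085 (-0.060 to 0.23) when the libraries were scaled by their totals and to 0.0053 (-0.14 to 0.15) with the GC trend removed. A difference in ORAI1 was therefore not detectable under either of these scalings.

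ORAI3, a subunit that also takes part in channels opened by arachidonic acid, was the least read member, with 200 reads in Ramos and 71 in Ramos640. Its log2 fold change of -1.10 had an interval of -1.52 to -0.72, that is, 1.64-fold to 2.88-fold lower. The fold change of ORAI3 lay at percentile 7.52 of all genes compared, and it stayed past 1.5-fold lower under all settings tried, between -1.31 and -1.03. The GENCODE annotation places a gene of the same strand over 1397 of ORAI3's exon bases, and how reads there were assigned is not given in the sources used here.

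Since both libraries contain all 3 subunits, their ratios need no scaling between libraries and, when compared between libraries, no transcript length. The ratio of ORAI2 to ORAI3 reads went from 47.9 in Ramos to 153 in Ramos640, 3.19 times as high (95% exact conditional interval 2.42 to 4.25). ORAI1 to ORAI3 went from 4.21 to 10.2, 2.42 times as high (1.81 to 3.28). ORAI1 to ORAI2 fell from 0.0878 to 0.0667, a ratio of 0.759 (0.684 to 0.843). In order of their change relative to each other, ORAI2 was thus first, ORAI1 second and ORAI3 last, each step larger than counting error. Of the ORAI reads, ORAI3 held 1.88% (1.63% to 2.16%) in Ramos and 0.609% (0.476% to 0.767%) in Ramos640.

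Per length of the exon union, the ORAI2 share of the family level was 69.9% in Ramos and 77.6% in Ramos640, ORAI1 had 24.0% and 20.2%, and ORAI3 had 6.13% and 2.13%. These shares depend on which length is used, since the ORAI2 transcript is long (10.7 kb for the canonical one) and its coding part is not. By the canonical transcript ORAI2 held 57.7% and 66.2%, and by coding length it held 91.6% and 94.2%. That the share was higher for ORAI2 and lower for ORAI3 follows from the ratios above for any length, and the ORAI1 share was lower in all 5 definitions of length tried. The reads of the family in sum were 10628 and 11665, a log2 fold change of 0.52 (0.48 to 0.55), and ORAI2 supplied most of them.

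**Figure D2:**
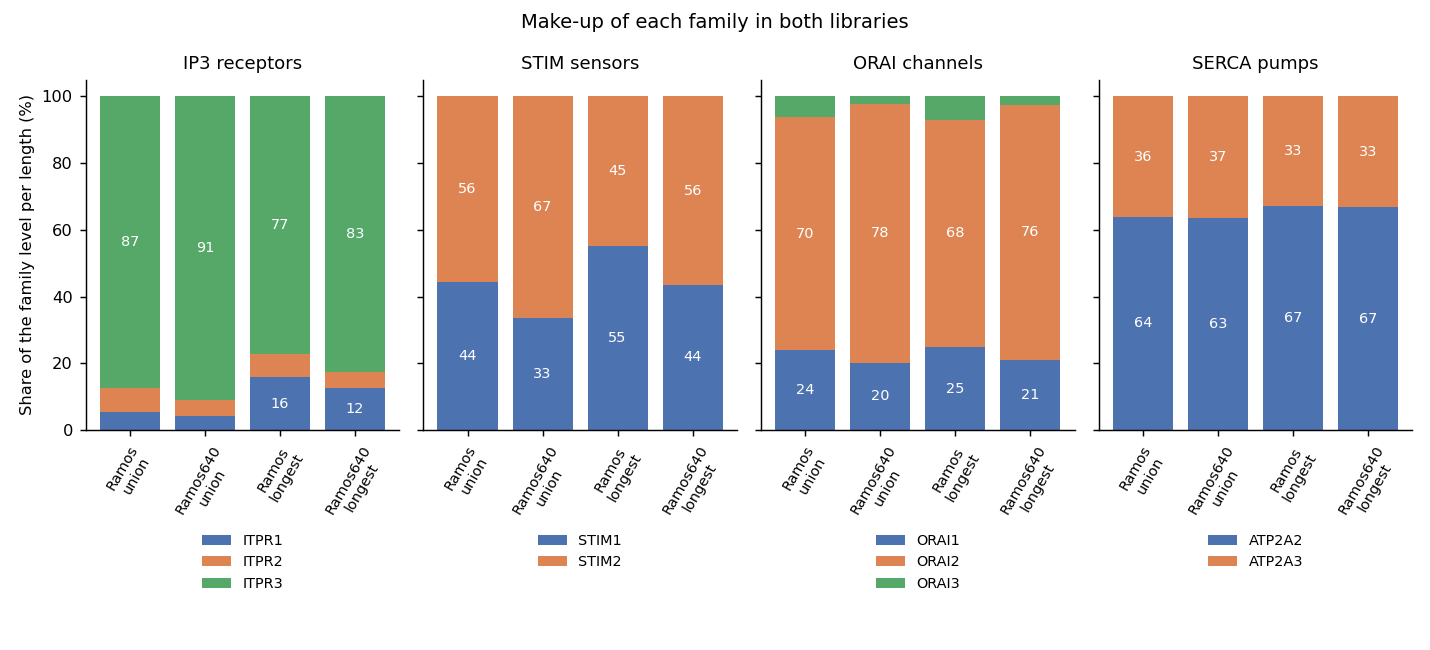
Share of each gene in the level of its family, in percent, with reads divided by the union of exons or by the longest transcript; colours stand for the genes named under each panel. STIM2 and ORAI2 hold a larger share in Ramos640 under both lengths, and the SERCA panel shows almost equal bars.

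The STIM sensors moved in opposite directions. STIM1, the sensor that responds to strong store depletion and is the main activator of ORAI1, had 3857 reads in Ramos and 2190 in Ramos640. The log2 fold change of STIM1 was -0.44 (-0.51 to -0.36), and with the GC trend removed it was -0.61 (-0.68 to -0.53), past the 1.5-fold criterion. STIM2, which responds to small drops in store calcium and helps to set the resting calcium level, had 3312 and 2996 reads. Its log2 fold change was 0.24 (0.16 to 0.31), and 0.37 with the GC trend removed. The resistant line thus had less STIM1 and slightly more STIM2 RNA on all the scales tried.

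STIM1 to STIM2 reads went from 1.16 in Ramos to 0.731 in Ramos640, a ratio of 0.628 (0.584 to 0.675). Of the STIM reads, STIM1 held 53.8% (52.6% to 55%) in Ramos and 42.2% (40.9% to 43.6%) in Ramos640. Which sensor was the more abundant in Ramos depended on the length used: STIM1 held 44.5% of the family level by the exon union and 55.1% by the longest transcript. In Ramos640 STIM2 was the more abundant by both, with STIM1 at 33.5% and 43.5%. STIM reads in sum were 7169 and 5186, a log2 fold change of -0.086 (-0.14 to -0.034).

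Sensor and channel RNA therefore changed relative to each other. All STIM reads over all ORAI reads came to 0.675 in Ramos and 0.445 in Ramos640, a ratio of 0.659 (0.630 to 0.689). This comparison was chosen after the values were seen. ORAI2 held 90.2% of the ORAI reads in Ramos and 93.2% in Ramos640, so the channel side is mostly ORAI2. The ratio is not corrected for GC content. With the GC trend removed, ORAI2 came to 0.37 instead of 0.56, STIM2 to 0.37 instead of 0.24 and STIM1 to -0.61 instead of -0.44. Per length the ratio was 0.583 and 0.431 by the exon union, and 1.13 and 0.806 by the longest transcript. Whether sensors or channels had the higher level in Ramos thus rested on the length, and the ratio was lower in Ramos640 by both lengths.

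**Figure D3:**
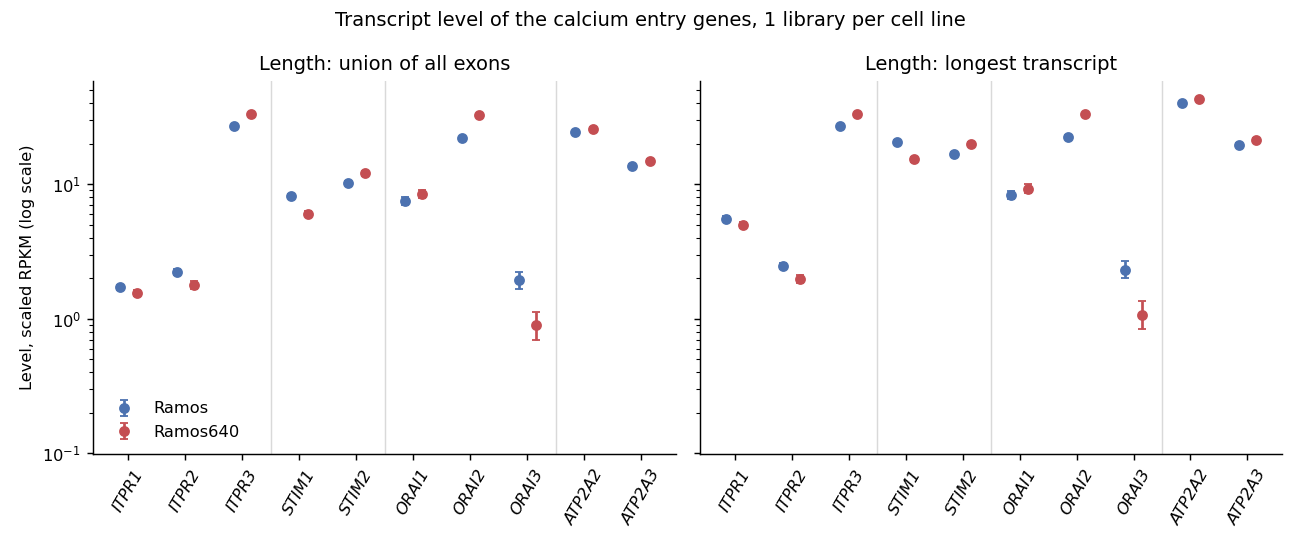
Transcript level of the 10 genes in scaled RPKM (reads per kilobase at a common library depth) on a log axis, 1 panel for each length used, 1 point for each library (blue Ramos, red Ramos640) and bars for the 95% counting interval. ORAI3 has the lowest level of the 10 in Ramos640 in both panels, and ITPR1 shifts most between the panels.

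The IP3 receptors release calcium from the ER, and ITPR3 was their dominant transcript. ITPR3, the receptor type with the lowest affinity for IP3, had 10412 reads in Ramos and 9813 in Ramos640. The log2 fold change was 0.30 (0.26 to 0.34) for ITPR3, and 0.12 (0.085 to 0.16) with the GC trend removed. Its exons share 1025 bases with UQCC2, on the opposite strand, which had 2312 and 2698 reads and is listed under its older symbol MNF1, and reads in the overlap cannot be told apart if strand was not used. ITPR1, the type best known from neurons, had 2156 and 1491 reads, a log2 fold change of -0.15 (-0.25 to -0.055). ITPR2, the type most sensitive to IP3, had 1211 and 747 reads, a log2 fold change of -0.32 (-0.45 to -0.18). With the GC trend removed ITPR2 came to -0.10 (-0.23 to 0.032), and a difference was then not detectable.

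Within the family, ITPR2 to ITPR3 reads changed to 0.655 times the Ramos ratio (0.594 to 0.721). ITPR1 to ITPR3 changed to 0.734 times (0.683 to 0.789). ITPR1 to ITPR2 changed from 1.78 to 2.0, 1.12 times as high with an interval of 1.00 to 1.26, which is at the edge of counting error. These ratios are not corrected for GC content. With the GC trend removed the log2 fold changes were -0.13 for ITPR1, -0.10 for ITPR2 and 0.12 for ITPR3, so both ratios to ITPR3 changed less and the order of ITPR1 and ITPR2 was reversed. In reads, ITPR3 went from 75.6% (74.8% to 76.3%) of the family's reads to 81.4% (80.7% to 82.1%). Per length its share was 87.2% in Ramos and 90.9% in Ramos640 by the exon union, and 77.1% and 82.6% by the longest transcript. ITPR1 has an exon union of 32.1 kb and a longest transcript of 9.91 kb, so its share was 5.55% and 4.24% by the former and 15.9% and 12.5% by the latter.

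The SERCA pumps, which refill the ER, differed little between the libraries. ATP2A2, the pump found in nearly all cells, had 13146 reads in Ramos and 10722 in Ramos640, the most of any member in Ramos. The log2 fold change of ATP2A2 was 0.087 (0.050 to 0.12), or 0.0068 (-0.030 to 0.044) when scaled by library totals. ATP2A3, a pump typical of blood cells, had 3719 and 3092 reads and a log2 fold change of 0.11 (0.045 to 0.18). It came to 0.034 (-0.035 to 0.10) with library totals and to -0.075 (-0.14 to -0.0055) with the GC trend removed, so its direction was not settled. The ratio of the pumps was 3.53 in Ramos and 3.47 in Ramos640, 0.981 times as high with an interval of 0.929 to 1.04 that includes 1. With the GC trend removed the pumps had opposite signs, with ATP2A2 at 0.069.

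Levels can be compared between genes only per length. By the exon union, in scaled RPKM (reads per kilobase after the libraries were brought to a common depth), ITPR3 was highest in Ramos at 27, followed by ATP2A2 at 24.5, ORAI2 at 22.1, ATP2A3 at 13.8 and STIM2 at 10.2. STIM1 at 8.19 and ORAI1 at 7.57 had overlapping intervals, as did ITPR2 at 2.23, ORAI3 at 1.94 and ITPR1 at 1.72, each with the next in this order. In Ramos640 ITPR3 at 33.1 and ORAI2 at 32.6 had overlapping intervals and stood above ATP2A2 at 26. Then came ATP2A3 at 14.9, STIM2 at 12.0, ORAI1 at 8.49 and STIM1 at 6.06, and ITPR2 at 1.79, ITPR1 at 1.55 and ORAI3 at 0.895 were lowest. By this length ORAI2 moved up to the level of ITPR3, and ORAI3 moved to the last place. ORAI1 stood above STIM1 in Ramos640, while in Ramos their intervals overlapped.

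By the longest transcript ATP2A2 led in both libraries, at 40.5 and 43.1 scaled RPKM. STIM1 was at 20.8 in Ramos, with an interval that overlaps that of ATP2A3 at 19.7 and is above STIM2 at 16.9. In Ramos640 STIM1 was at 15.4, below STIM2 at 19.9. ORAI1 was at 8.27 in Ramos and 9.27 in Ramos640, below STIM1 in both, unlike by the exon union. ORAI2 was at 22.7 and 33.5, and in Ramos640 its interval overlapped that of ITPR3 at 33.1. ORAI3 was lowest in both libraries, at 2.32 and 1.07, and in Ramos its interval overlapped that of ITPR2 at 2.46.

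GC content of the canonical transcripts ranged from 42% for ITPR2 to 65.8% for ORAI1. STIM1 had 56.4% and STIM2 43.0%, while ORAI2 had 57.2% and ORAI3 59.4%. Against the running median of genes of like GC content, ORAI2 stayed higher at 0.37, STIM2 higher at 0.37, STIM1 lower at -0.61 and ORAI3 lower at -1.31. GENCODE marks the ORAI1 locus as an error of the GRCh37 reference sequence, and the effect of this on its counts was not tested.

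**Figure D4:**
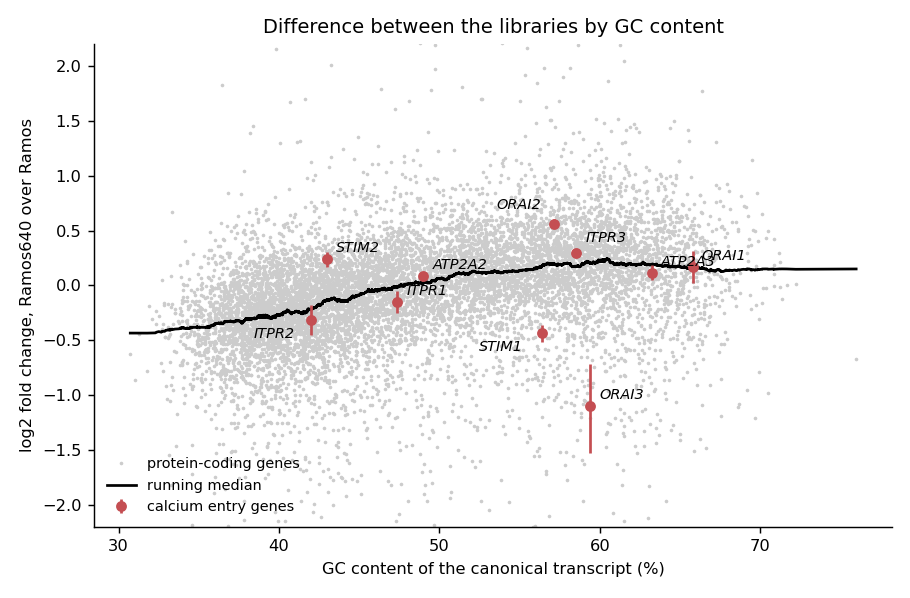
Log2 fold change, Ramos640 over Ramos, against the GC content of the canonical transcript in percent; grey dots are protein-coding genes, the black line is their running median, and red points with 95% counting intervals are the 10 calcium entry genes, and dots beyond the limits of the vertical axis are not drawn. STIM1 and ORAI3 lie below the line, and ORAI2 and STIM2 above it.

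Each gene was also set beside its neighbours on GRCh37, to describe whether the difference was shared by the surrounding genes. ORAI3 (chr16:30960389-30967782, plus strand) had a median log2 fold change of 0.0046 among its 20 nearest protein-coding genes with at least 100 reads, and 19 of the 20 were above it, within 0.601 Mb. STIM1 (chr11:3875757-4114440, plus strand) had a median of 0.21 among its neighbours, and 18 of 20 were above it, within 4.53 Mb. For STIM2 (chr4:26859223-27027003, plus strand) the median was -0.056 with 18 of 20 below it, within 18.4 Mb. For ORAI2 (chr7:102073553-102097272, plus strand) the median was 0.082 with 18 of 20 below it, within 1.94 Mb. For each of these 4 genes most neighbours thus lay on 1 side. The neighbours of STIM2 lie over a far wider region than those of ORAI3. Among all genes with at least 10 reads, the fold changes lay at percentile 7.52 for ORAI3, 23.3 for STIM1, 68.5 for STIM2 and 84.8 for ORAI2. The neighbour counts therefore partly restate each gene's rank among all genes, and a difference particular to the surroundings was not tested.

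ITPR2 (chr12:26488285-26986127, minus strand) was close to its surroundings, with a median of -0.26 and 11 of 20 neighbours above it. For ITPR3 (chr6:33588142-33664351, plus strand) the median was 0.17, and for ITPR1 (chr3:4535029-4889190, plus strand), near the end of its chromosome, it was -0.069 over 14 neighbours. The remaining medians were 0.11 around ORAI1 (chr12:122064414-122081124, plus strand), -0.091 around ATP2A2 (chr12:110718561-110788898, plus strand) and 0.072 around ATP2A3 (chr17:3827164-3867758, minus strand). Of 20 neighbours each, 12 were below ORAI1, 16 below ATP2A2 and 11 below ATP2A3. ATP2A2 was thus also above most of its neighbours, at a log2 fold change of only 0.087. ORAI2 shares 588 exon bases with its neighbour ALKBH4, on the opposite strand, which had 764 and 669 reads.

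Around the core machinery, 94 further genes of calcium handling were listed by role, of which 76 had at least 10 reads. Past 1.5-fold, 11 were higher in Ramos640 (14.5%) and 8 were lower (10.5%), and their median log2 fold change was 0.056. For all genes the shares were 14.6% and 17.3%, as given above. Of the 68 listed genes with 100 reads or more, 9 were higher and 4 lower, where 9.94% and 12.6% of all genes at that depth were. The list was thus below the background for lower genes in both comparisons. For higher genes it was near the background of all genes, and somewhat above that of genes with 100 reads or more.

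Regulators of STIM and ORAI held 6 of the 8 lower genes, among 14 with enough reads, and their median was -0.22. Of these 6, 4 had fewer than 100 reads in both libraries together, where 30.0% of all genes were past 1.5-fold lower and 26.9% higher. Of the 9 regulators with 100 reads or more, 2 were lower (TRPC1 and HOMER1), against 12.6% of all genes at that depth. CRACR2B, an EF-hand protein related to the ORAI1 activator CRACR2A, had 57 reads in Ramos against 6 in the resistant line (log2 fold change -2.70). TRPC1, a cation channel reported to join store-operated channels, had 249 and 45 reads, a log2 fold change of -2.07. HOMER1, a scaffold that binds IP3 receptors and TRPC channels, had 500 and 187 reads (-1.03), and SLC35G1, a partner of STIM1, had 62 and 19 (-1.29). CAV1, the main protein of caveolae, had 17 reads and 1 read, a scaled ratio of 13.1-fold lower with an interval from 2.05-fold to 546-fold. HOMER2, named after its values were seen, was past the criterion with 11 and 3 reads and an interval that includes 1. HOMER3 was higher, with 12 and 24 reads and a log2 fold change of 1.30. UBQLN1, the most highly read of the group in Ramos, had 6819 and 4023 reads and a log2 fold change of -0.38. ESYT1, the most highly read in Ramos640, had 6309 and 4938 reads and a log2 fold change of 0.028.

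The group listed as SERCA regulators and calcium-binding chaperones of the ER held 5 of the 11 higher genes. It had 13 genes with enough reads, with 0 lower and a median of 0.29. The 5 higher genes encode chaperones or calcium-binding proteins, and SDF4 belongs to the Golgi rather than the ER. All 5 had 100 reads or more, a depth at which 9.94% of all genes were past 1.5-fold higher. CALR, the calcium-buffering chaperone calreticulin, had 38066 reads in Ramos against 58543 in the resistant line (log2 fold change 1.00). HSP90B1, an ER chaperone of the HSP90 family, had 7195 and 10902 reads (0.98), and HSPA5, the ER chaperone BiP, had 21686 and 28147 (0.76). SDF4, a calcium-binding protein of the Golgi lumen, had 5010 and 6444 reads, a log2 fold change of 0.74 that dropped to 0.55, under the criterion, with the GC trend removed. RCN1, a calcium-binding protein of the secretory pathway, had 200 and 281 reads (0.87). The other 8 genes of the group stayed within 1.5-fold.

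Of the 13 ER release channels and IP3 receptor partners with enough reads, 1 was higher (7.69%) and 2 were lower (15.4%). Over all genes 14.6% were higher and 17.3% lower. RYR3, a ryanodine receptor, had 19 and 41 reads (1.44). Among genes with fewer than 100 reads, as here, 26.9% were past 1.5-fold higher. The 2 lower genes were among 11 with 100 reads or more, a depth at which 12.6% of all genes were lower. IRAG2, an ER membrane protein that binds IP3 receptors and is listed under its older symbol LRMP, was the most highly read of the group, with 28370 and 14177 reads and a log2 fold change of -0.62. ITPRID2, which anchors IP3 receptors to actin and is listed as SSFA2, had 1648 and 794 reads (-0.67). With the GC trend removed IRAG2 came to -0.44 and ITPRID2 to -0.53, both under the criterion.

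The remaining groups held 1 higher gene each and 0 lower. The genes with enough reads were 6 for making and breaking IP3 and 3 for calcium removal across the plasma membrane and Golgi. They were 11 for mitochondrial transport and 16 for calmodulin, calcineurin and NFAT. All had 100 reads or more, a depth at which 9.94% of all genes were higher and 12.6% lower. ITPKB, the kinase that turns IP3 into IP4, had 1654 and 1955 reads (0.62, and 0.42 with the GC trend removed), while PLCG2, the phospholipase that makes IP3 in B cells, had 22813 and 16188 (-0.11). ATP2B4, a calcium pump of the plasma membrane, had 159 and 251 reads (1.03), and ATP2B1, the most highly read pump of that membrane, had 2753 and 1858 (-0.19, and 0.12 with the GC trend removed). SLC8B1, the mitochondrial sodium-calcium exchanger, listed as SLC24A6, had 1995 and 2389 reads (0.64, and 0.47 with the GC trend removed), and VDAC1, a channel of the outer mitochondrial membrane, had 13431 and 9894 (-0.060, and 0.057 with the GC trend removed). RCAN1, an inhibitor of calcineurin whose transcription is raised by NFAT, had 67 and 93 reads (0.84), and CALM2, a calmodulin gene, had 21439 and 13882 (-0.25, and 0.080 with the GC trend removed). The directions of ATP2B1, VDAC1 and CALM2 thus changed with that setting. VDAC1 and CALM2 have processed pseudogenes, so their counts are uncertain.

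**Figure D5:**
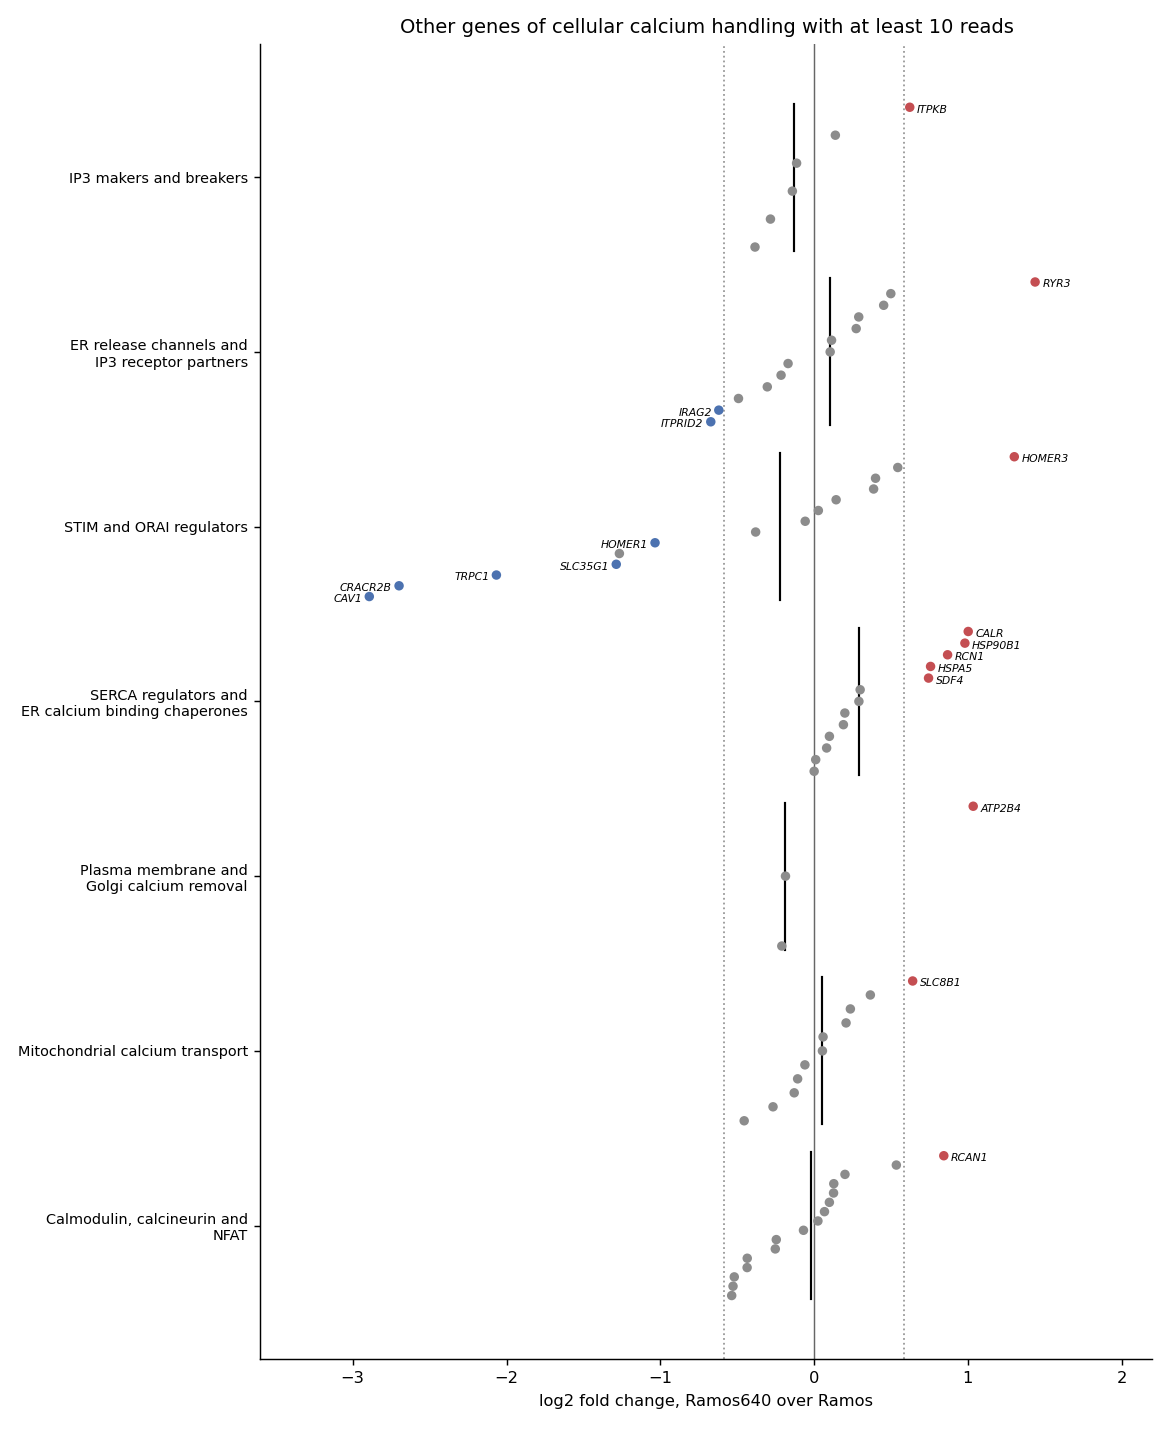
Log2 fold change, Ramos640 over Ramos, of the 76 listed genes with at least 10 reads, by role; each dot is a gene, black bars are group medians and dotted lines mark a fold of 1.5. Red (higher) and blue (lower) dots are past that fold with a counting interval that excludes 1, and 5 of the 11 red dots lie in the group of SERCA regulators and chaperones.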

How the data were processed

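RNA of Ramos and Ramos640 cells, pooled over 3 passages per line, was sequenced on the Ion Proton as 1 library per line. Per the study's methods, the authors trimmed adaptors, aligned reads to GRCh37 with MapSplice and deposited raw read counts per gene. The counting program, the annotation, the use of strand and the treatment of reads with several matches are not given in the sources used here. Names of 28 rows had been turned into numbers by a spreadsheet program and were not traced.

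Counts were scaled by median-of-ratios size factors (1.14 and 0.876), with TMM factors (edgeR 4.0.16) and library totals as alternatives. With 1 library per line no dispersion can be estimated, so no p-value is given. Intervals are 95% exact and cover counting error only. Genes with fewer than 10 reads in both libraries together were left out, the pseudocount was 1, and the fold criterion was 1.5. The GC trend was the running median of protein-coding genes that had 100 reads or more. Gene models came from GENCODE release 44 mapped to GRCh37, which matched 83.9% of the genes compared and all 10 members. Of the 94 further genes, 13 were matched by an older symbol. Named are the 10 members and, in each group of the further genes, those past 1.5-fold with an interval that excludes 1. The gene most highly read in either library is named as well. The members, lists and comparisons were chosen with earlier results of these data known. Scripts were tested on simulated data. Python 3.11.15, numpy 2.4.6, pandas 2.3.3 and scipy 1.17.1 were used.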

Additional observations from a re-analysis of the deposited data

How the results depend on the processing

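Each member's log2 fold change was recomputed with TMM factors, library totals, a pseudocount of 0.1 or 10 and the GC trend removed. ATP2A3 changed sign, to -0.075 with the GC trend removed. With that setting 2 members were past 1.5-fold lower instead of 1, STIM1 being added. With library totals, which shift log2 fold changes by -0.080, 3 members had intervals above a fold of 1 instead of 6. Of the further calcium genes, 17 instead of 11 were past 1.5-fold higher with a minimum of 1 read, and 4 instead of 8 were past 1.5-fold lower with a minimum of 100 reads. Over these settings ORAI2 ranged from 0.37 to 0.56, STIM1 from -0.61 to -0.43, STIM2 from 0.16 to 0.37 and ORAI3 from -1.31 to -1.03. Canonical transcript and coding length were added after seeing the data. No paired analysis was possible because each line had 1 library, and for the same reason no replicate could be left out. Differences between the lines cannot be told apart from differences between the libraries.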
